A study of Mus musculus with 9 samples.

Results

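NF-κB is a family of transcription factors that switch on inflammatory genes in macrophages, and the IκB proteins hold them back or steer them. The genes described here are 4 subunits (Rel, Rela, Relb and Nfkb2) and 6 IκB genes (Nfkbia, Nfkbib, Nfkbie, Nfkbid, Nfkbiz and Bcl3). These 10 genes were taken by symbol from 18193 genes measured on 9 Affymetrix mouse arrays. Each was read from its brightest probe set, a group of short probes read together as 1 signal. Where a gene had further probe sets, they served as a check.

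The cells were bone marrow derived macrophages of C57BL6 mice aged 6 to 12 weeks, grown with medium conditioned by L929 cells and used on day 6 in vitro. All cultures first received lipopolysaccharide (LPS, a bacterial cell wall component) at 33 ng/mL for 3 h. The next 6 h were spent with TET Br (triethyltin bromide, 10 µM), with TMT OH (trimethyltin hydroxide, 1.25 µM) or with sterile saline, and each of the 3 groups had 3 biological replicates, called TET, TMT and saline arrays below. TET carries ethyl groups on tin and TMT methyl groups, and their doses differed, so TET against TMT compares the treatments as given. Since every group had LPS, its own induction of these genes was not measured here. No source says that replicates came from separate mice, and the p-values therefore describe only how these samples spread. Precision is limited by having 3 arrays per group, for which the smallest p of an exact permutation test is 0.1.

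In resting macrophages the classical inhibitors, the products of Nfkbia, Nfkbib and Nfkbie, keep NF-κB dimers in the cytoplasm. LPS acts through its receptor and the IκB kinases, which mark these inhibitors for destruction, and the freed dimers enter the nucleus and bind κB sites. Among the genes they induce are several of their own subunits and inhibitors, and the nuclear IκB proteins, encoded by Nfkbiz, Nfkbid and Bcl3, which adjust the choice of targets at the DNA.

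RefSeq promoters (build GRCm38.p6) were at hand for 8 of the 10 genes, in 12 windows of 250 bases before a start site. Relb and Nfkbiz were not among them. The κB consensus motif, searched on both strands with overlapping matches counted, occurred in 7 of the 12 member windows, against 3.90% of 32851 windows of all genes. By gene, it occurred for 5 of 8 members (Nfkb2, Nfkbia, Nfkbid, Nfkbie and Rel), against 4.46% of 27025 genes. Those of Bcl3, Nfkbib and Rela held no match in these letters. A match is a description of the sequence, not a measured binding site. The windows of Nfkbia, Nfkbie and Rel are printed below, since the largest differences among the members with a promoter match were in these genes. They read 5′ to 3′ on the gene's strand and end at the base before the start site, and capitals mark the κB matches.
Nfkbia, chr12:55492648-55492897, minus strand: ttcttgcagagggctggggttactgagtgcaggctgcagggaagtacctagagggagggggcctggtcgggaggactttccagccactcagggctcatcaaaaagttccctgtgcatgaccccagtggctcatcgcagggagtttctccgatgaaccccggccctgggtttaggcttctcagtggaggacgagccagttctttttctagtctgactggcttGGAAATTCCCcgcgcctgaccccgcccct
Nfkbie, chr17:45555450-45555699, plus strand: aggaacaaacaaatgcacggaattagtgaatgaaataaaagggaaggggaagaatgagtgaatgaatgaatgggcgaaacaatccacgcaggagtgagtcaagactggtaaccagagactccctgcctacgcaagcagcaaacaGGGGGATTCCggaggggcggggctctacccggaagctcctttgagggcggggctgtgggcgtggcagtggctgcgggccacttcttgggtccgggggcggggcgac
Rel, chr11:23770970-23771219, minus strand: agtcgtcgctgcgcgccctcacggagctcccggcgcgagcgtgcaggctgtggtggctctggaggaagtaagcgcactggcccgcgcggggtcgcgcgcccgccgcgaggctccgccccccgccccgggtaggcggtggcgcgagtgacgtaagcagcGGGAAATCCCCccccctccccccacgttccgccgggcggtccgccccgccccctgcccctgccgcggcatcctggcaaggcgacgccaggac
The match of Nfkbia began 29 bases before the start site and that of Nfkbie 106 bases before it. Rel held matches on both strands that overlapped, the first of them 92 bases before the start site.

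Most members were lower after either organotin, but not the same ones by the same amount. Against saline, 8 members fell and 0 rose under TET, and 8 fell and 0 rose under TMT, at an adjusted p under 0.05 in limma. Over all 18193 genes, 23.4% fell and 27.4% rose under TET, and 13.4% fell and 14.3% rose under TMT. All 10 members belong to the 9097 genes at or above the median brightness, and among those alone 42.5% fell and 24.2% rose under TET, and 24.2% fell and 26.7% rose under TMT. Under TET the members gave 7 falls and 1 rise after a further quantile normalization, and 6 falls and 2 rises (Nfkbib and Nfkbid) after cyclic loess between arrays. Over all genes, the first of these rescalings gave 4157 falls and 3538 rises under TET, and the second 3693 falls and 3919 rises. The median log2 fold change of the 10 members was −0.74 under TET, where the median of all genes was 0.09. It was −0.60 under TMT, where the median of all genes was 0.01. These medians of all genes include the dim ones, and a median over the bright genes alone was not computed. Both comparisons use the same saline arrays, so their counts are not independent. By their brightest probe sets, Nfkbie and Bcl3 fell the most of the members under TET, and Rel and Nfkbiz under TMT. In bulk samples, fewer cells of a type and less RNA per cell cannot be told apart.

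**Figure D1:**
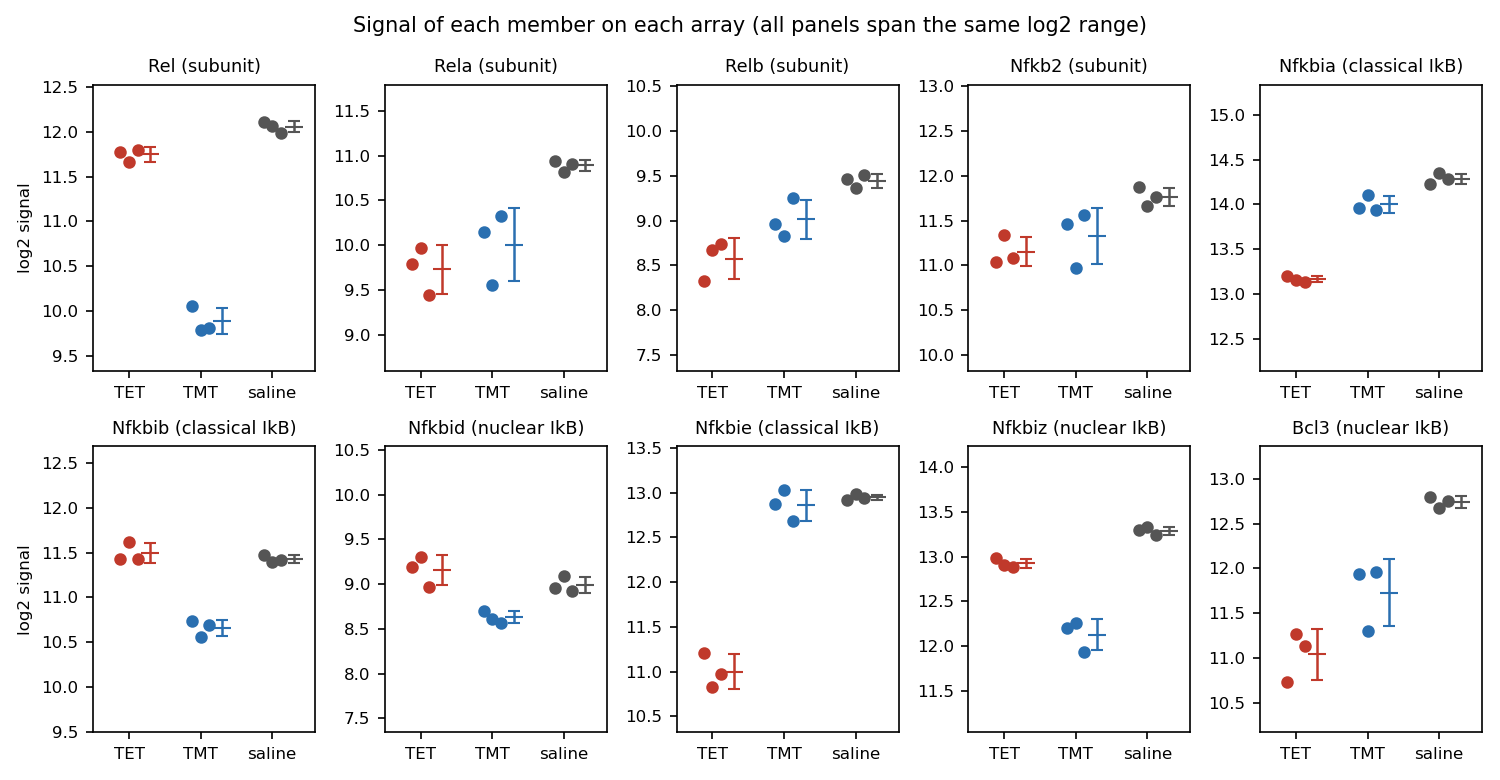
Log2 signal of the 10 members on each of 9 arrays, in panels that span the same log2 range. Points are arrays, in the order TET, TMT and saline, and the bar beside them is mean ± SD (n = 3). Rel was lowest on the 3 TMT arrays (9.79 to 10.05) and Nfkbie on the 3 TET arrays (10.83 to 11.21).

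Rel encodes c-Rel, a subunit with a transactivation domain that serves interleukin-12 and interleukin-23 genes in macrophages. Its log2 signal was 11.78, 11.66 and 11.80 on the TET arrays, 10.05, 9.79 and 9.81 on the TMT arrays, and 12.11, 12.07 and 11.99 on the saline arrays. The 3 groups did not overlap, and the TMT arrays stood far below the other two groups. Its fall under TMT was 4.52-fold (log2 fold change −2.17, SE 0.0982, adjusted p = 2.7e-07), the largest fall among the brightest probe sets of the members. Under TET it fell by 0.31 on the log2 scale (SE 0.0982, adjusted p = 0.024). That smaller fall did not pass after cyclic loess (−0.12, adjusted p = 0.355), after a further quantile normalization (−0.24, adjusted p = 0.0876), with array weights (adjusted p = 0.0506), or without saline replicate 1 (adjusted p = 0.0793), saline replicate 2 (adjusted p = 0.0687) or TET replicate 2 (adjusted p = 0.0668). Rel was 3.64-fold higher under TET than under TMT (adjusted p = 2.5e-07).

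Rela encodes the transactivating subunit of the most abundant dimer in most cells. The signals were 9.79, 9.97 and 9.44 under TET, 10.15, 9.55 and 10.33 under TMT, and 10.94, 10.82 and 10.91 in saline. Every organotin array lay below every saline array, while the TET and TMT arrays overlapped. Rela fell 2.23-fold under TET (log2 fold change −1.16, SE 0.195, adjusted p = 0.00073) and 1.84-fold under TMT (−0.88, SE 0.195, adjusted p = 0.0064). The difference between TET and TMT was −0.27 (95% interval −0.71 to 0.16, adjusted p = 0.26). Without TMT replicate 2, the lowest TMT array for this gene, it was −0.50 and passed (adjusted p = 0.0234).

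Relb, the transactivating subunit of the noncanonical pathway, is itself a target of NF-κB. Its signals were 8.32, 8.67 and 8.74 under TET, 8.96, 8.83 and 9.25 under TMT, and 9.46, 9.36 and 9.51 in saline. The groups formed an order without overlap, TET lowest and saline highest. Relb fell 1.83-fold under TET (log2 fold change −0.87, SE 0.139, adjusted p = 0.00051) and 1.35-fold under TMT (−0.43, SE 0.139, adjusted p = 0.042). The TMT call was lost without any 1 of the saline arrays (adjusted p 0.0711 to 0.131), without TMT replicate 1 (adjusted p = 0.125) and without TMT replicate 2 (adjusted p = 0.139). Signals under TET were below those under TMT by 0.44 (adjusted p = 0.023), a difference that was −0.20 after a further quantile normalization (adjusted p = 0.271) and −0.16 after cyclic loess (adjusted p = 0.371). That call was also lost without TMT replicate 3 (−0.32, adjusted p = 0.0911) and without TET replicate 1 (−0.31, adjusted p = 0.0728), and in a fit of the 6 TET and TMT arrays alone (adjusted p = 0.0552).

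Nfkb2 encodes a precursor that both restrains Relb and, once processed, pairs with it. It read 11.04, 11.34 and 11.08 under TET, 11.46, 10.97 and 11.56 under TMT, and 11.87, 11.66 and 11.76 in saline. Both organotin groups lay below saline and overlapped each other. Nfkb2 fell 1.53-fold under TET (log2 fold change −0.61, SE 0.154, adjusted p = 0.0079). Under TMT its difference was −0.44 (SE 0.154, adjusted p = 0.062) and did not pass. The second probe set gave −0.82 under TET (adjusted p = 0.0014) and −0.64 under TMT (adjusted p = 0.011), and the TMT difference also passed without TMT replicate 3 (−0.55, adjusted p = 0.0348), with array weights (−0.31, adjusted p = 0.00863), with trended robust moderation (adjusted p = 0.0422) and among bright genes alone (adjusted p = 0.039). Without TMT replicate 2 it was −0.26. TET minus TMT was −0.17 (95% interval −0.52 to 0.17, adjusted p = 0.36), and without TMT replicate 2 it was −0.36 and passed (adjusted p = 0.0347).

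Nfkbia, which encodes IκBα, the fast inhibitor that NF-κB induces and that exports it from the nucleus, lay near the top of the signal scale. It read 13.20, 13.16 and 13.13 under TET, 13.96, 14.11 and 13.94 under TMT, and 14.23, 14.35 and 14.28 in saline. All 3 TET arrays stood well below the rest, and the TMT arrays lay just below saline. Nfkbia fell 2.18-fold under TET (log2 fold change −1.12, SE 0.0847, adjusted p = 2.9e-06) and 1.22-fold under TMT (−0.29, SE 0.0847, adjusted p = 0.029). It was lower under TET than under TMT by 0.84 (adjusted p = 2e-05). The small TMT fall did not pass without any 1 of the saline arrays (adjusted p 0.0557 to 0.108), without TMT replicate 1 (adjusted p = 0.105) without TMT replicate 3 (adjusted p = 0.0989) or after cyclic loess (adjusted p = 0.0564).

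The highest value on any array was 14.79, and signals near it may understate a difference, which was not tested. Over the other 4 probe sets of Nfkbia, the TET difference ran from −1.67 to −0.76 and passed in each, and the TMT difference ran from −0.84 to −0.20 and passed in 2 of the 4 (adjusted p = 0.10 and 0.068 in those that did not). The dimmest of them read 11.42, 11.52 and 11.51 under TET, 12.44, 12.07 and 12.42 under TMT, and 13.25, 13.08 and 13.11 in saline. It gave the largest differences of this gene, −1.67 under TET (adjusted p = 2.1e-06) and −0.84 under TMT (adjusted p = 0.00043).

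Nfkbie encodes IκBε, an inhibitor that is resynthesised later than IκBα and prefers dimers with c-Rel or RelA. The TET arrays read 11.21, 10.83 and 10.97, the TMT arrays 12.87, 13.03 and 12.68, and the saline arrays 12.92, 12.98 and 12.94. Only the TET group stood apart, and the TMT and saline arrays overlapped. Nfkbie fell 3.85-fold under TET (log2 fold change −1.94, SE 0.12, adjusted p = 7.1e-07). Under TMT the difference was −0.09 (95% interval −0.35 to 0.18, adjusted p = 0.70), and without TMT replicate 3 it was 0.00. TET lay below TMT by 1.86 (adjusted p = 9.5e-07).

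A second, dimmer probe set of Nfkbie read 9.15, 9.18 and 8.99 under TET, 11.53, 11.28 and 11.47 under TMT, and 11.81, 11.88 and 11.87 in saline. There the fall under TET was −2.74 (adjusted p = 3.8e-08), and the TMT arrays did lie below saline, with a difference of −0.42 (adjusted p = 0.0104). Both probe sets carry names that mark them as able to bind several transcripts.

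Nfkbib, which encodes IκBβ, the slower and more stable classical inhibitor, differed in the opposite way. It read 11.43, 11.62 and 11.43 under TET, 10.73, 10.56 and 10.69 under TMT, and 11.47, 11.39 and 11.42 in saline. Here the TMT arrays stood apart below, and the TET arrays overlapped saline. Nfkbib fell 1.70-fold under TMT (log2 fold change −0.77, SE 0.0918, adjusted p = 0.00012). The TET difference was 0.06 (95% interval −0.14 to 0.27, adjusted p = 0.59) and turned to −0.05 when array medians were subtracted, whereas after cyclic loess it was 0.26 and passed (adjusted p = 0.0455). TET was above TMT by 0.83 (adjusted p = 3.8e-05).

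The second probe set of Nfkbib set the TET arrays apart from saline as well. It was much dimmer, with 6.78, 6.42 and 6.36 under TET, 6.50, 6.51 and 6.33 under TMT, and 7.75, 7.66 and 7.66 in saline. Its difference was −1.17 under TET (adjusted p = 3.2e-05) and −1.24 under TMT (adjusted p = 4.6e-05), and TET minus TMT was 0.07 (adjusted p = 0.65). The direction of Nfkbib under TET therefore depends on the probe set, and the contrast of TET with TMT passed in the brighter one alone. The name of that brighter probe set marks it as able to bind several transcripts.

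**Figure D2:**
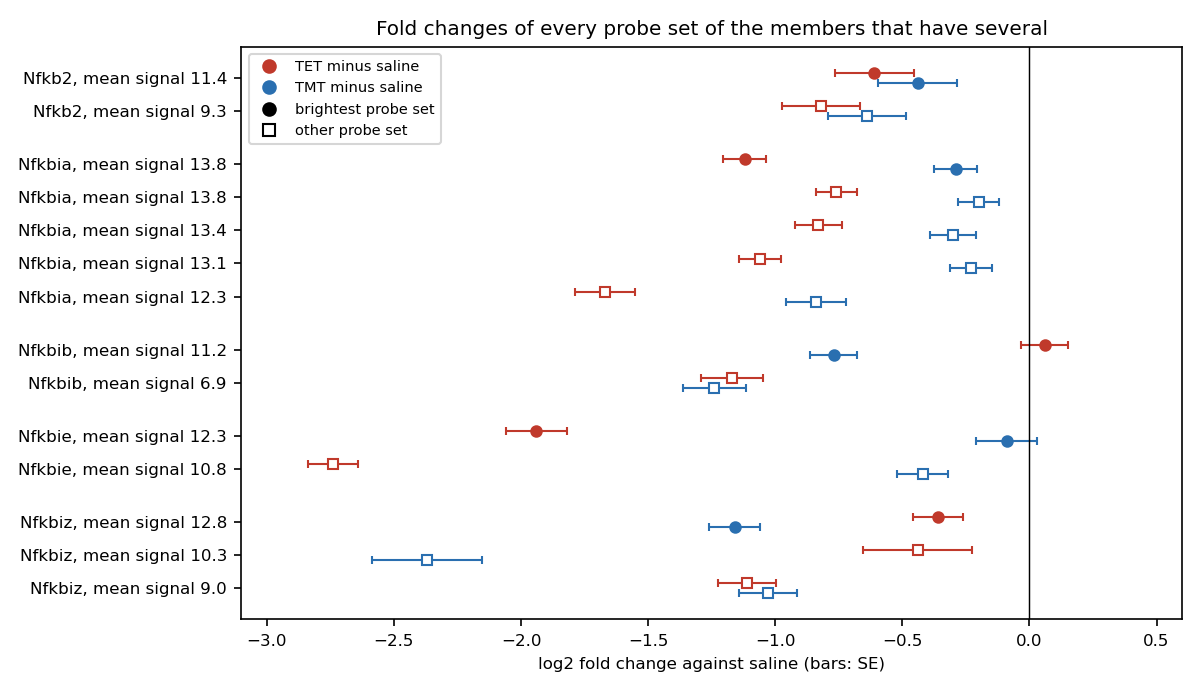
Log2 fold change against saline, with SE bars, for every probe set of the 5 members that have several, TET above TMT in each row, rows labelled by mean log2 signal over 9 arrays. The bright and dim probe sets of Nfkbib gave 0.06 and −1.17 under TET, and those of Nfkbia all lay below 0.

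Nfkbiz, which encodes IκBζ, a nuclear coactivator needed for a set of secondary LPS genes such as Il6 and Lcn2, read 12.98, 12.91 and 12.89 under TET. Its TMT arrays read 12.20, 12.26 and 11.94, and its saline arrays 13.30, 13.33 and 13.24. The groups did not overlap, with TMT lowest. Nfkbiz fell 2.23-fold under TMT (log2 fold change −1.16, SE 0.0995, adjusted p = 1.3e-05) and 1.29-fold under TET (−0.36, SE 0.0995, adjusted p = 0.012). The TET fall did not pass after cyclic loess (−0.27, adjusted p = 0.0593). TET was above TMT by 0.80 (adjusted p = 9e-05).

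The other probe sets of Nfkbiz both showed the fall under TMT. One gave −2.37 under TMT (adjusted p = 2.6e-05), with −0.44 under TET, which did not pass (adjusted p = 0.12), and a TET minus TMT difference of 1.93. The dimmest gave −1.03 under TMT (adjusted p = 9.8e-05) and −1.11 under TET (adjusted p = 2.8e-05), and its TET minus TMT difference was −0.08 (adjusted p = 0.56). As for Nfkbib, the difference between the organotins did not pass in the dimmest probe set.

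Bcl3 encodes a nuclear IκB protein that stabilises repressive homodimers at κB sites. It read 10.73, 11.27 and 11.13 under TET, 11.94, 11.30 and 11.96 under TMT, and 12.80, 12.67 and 12.75 in saline. The order was TET, TMT and saline from low to high without overlap, although TMT replicate 2 lay close to the TET arrays. Bcl3 fell 3.25-fold under TET (log2 fold change −1.70, SE 0.188, adjusted p = 4.4e-05) and 2.01-fold under TMT (−1.01, SE 0.188, adjusted p = 0.0023). TET was below TMT by 0.69 (adjusted p = 0.011).

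Nfkbid encodes IκBNS, a nuclear IκB protein linked to dampened interleukin-6 induction in macrophages. It read 9.19, 9.30 and 8.97 under TET, 8.70, 8.61 and 8.57 under TMT, and 8.96, 9.09 and 8.92 in saline. The TMT arrays lay below both other groups, and TET overlapped saline. Nfkbid fell 1.28-fold under TMT (log2 fold change −0.36, SE 0.105, adjusted p = 0.026), a call lost without any 1 of the saline arrays (adjusted p 0.0506 to 0.107), without TMT replicate 2 (adjusted p = 0.0641) and without TMT replicate 3 (adjusted p = 0.087). Under TET the difference was 0.17 (95% interval −0.07 to 0.40, adjusted p = 0.21). It passed without TET replicate 3 (0.26, adjusted p = 0.0493), after a further quantile normalization (0.32, adjusted p = 0.0325) and after cyclic loess (0.43, adjusted p = 0.00988). TET was above TMT by 0.53 (adjusted p = 0.002).

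Set directly against each other, TET and TMT differed in both directions among the 10 members. Rel, Nfkbib, Nfkbid and Nfkbiz were higher under TET than under TMT, and Relb, Nfkbia, Nfkbie and Bcl3 were lower. These 4 and 4 of 10 members compare with 28.1% of all genes higher and 23.7% lower, or 26% and 42.9% among bright genes alone. The counts were not tested against those shares, and that of lower members lies near the share of bright genes. Rela and Nfkb2 did not pass. In the dimmest probe set of each, the differences of Nfkbib and Nfkbiz did not pass either. The Relb call was lost after quantile normalization and after cyclic loess, among other settings. Among the subunits the contrast was widest for Rel, among the classical inhibitors for Nfkbie, and among the nuclear IκB genes for Nfkbiz, in its brightest probe set. Only 1 pair of compounds was compared, and its doses differed.

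**Figure D3:**
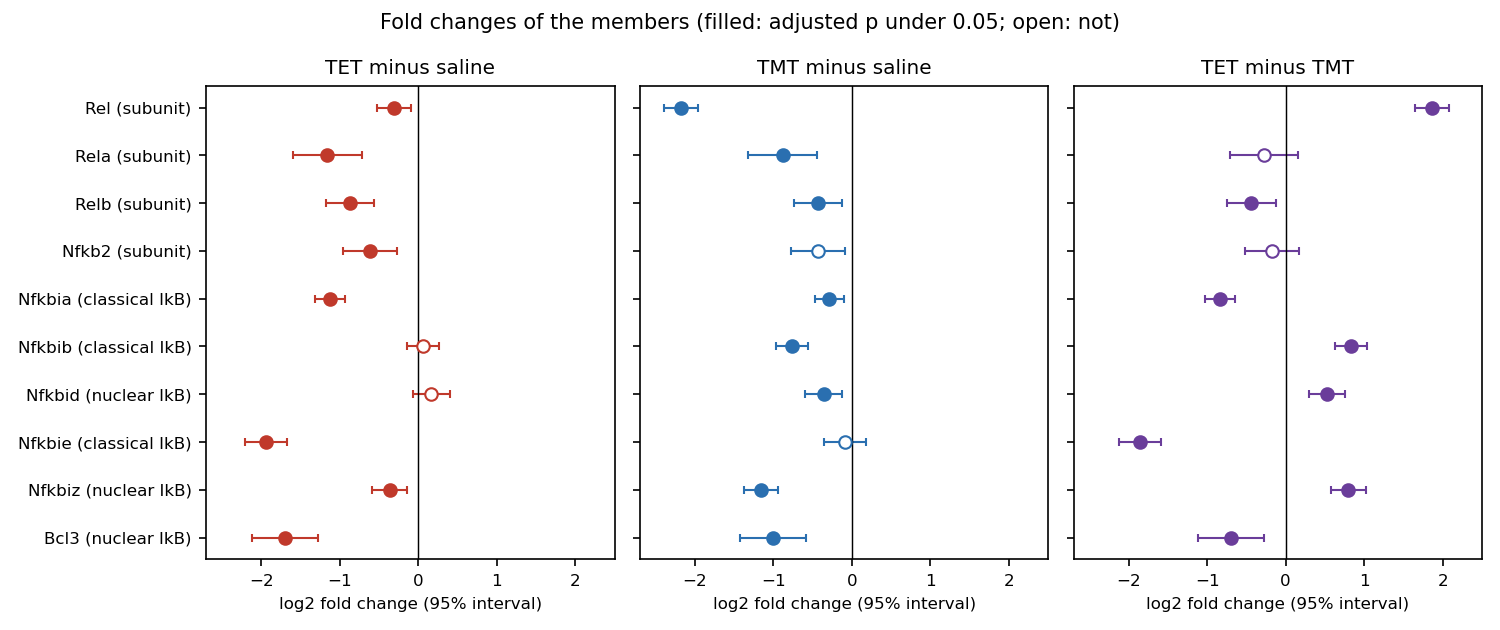
Log2 fold changes of the 10 members with 95% intervals, for TET minus saline, TMT minus saline and TET minus TMT. Filled points passed at an adjusted p under 0.05. Rel sits at −0.31, −2.17 and 1.86 in the 3 panels, and Nfkbie at −1.94, −0.09 and −1.86.

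The saline arrays agreed closely for the members, with SDs of 0.0285 to 0.103 and a median of 0.0612, against a median of 0.0907 over all genes. All members are bright genes, whereas medians over all genes include the dim ones, and none was computed for bright genes alone. The member SDs had a median of 0.165 under TET and 0.171 under TMT, against 0.171 and 0.118 over all genes. The largest SD, 0.408, was that of Rela under TMT. TMT replicate 2 was the lowest TMT array for Rel, Rela, Relb, Nfkb2, Nfkbib and Bcl3 and the highest for Nfkbia, Nfkbie and Nfkbiz.

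Some facts of the whole set of arrays touch every TET value. Signals spread less on the TET arrays, whose interquartile range was 3.51 ± 0.0489, against 3.83 ± 0.0384 under TMT and 3.86 ± 0.0275 in saline (SD, n = 3). A further quantile normalization lowered the median TET difference from saline over all genes by 0.12. Single members moved by other amounts under rescaling, and some of them upward, as given with each gene. Whether the range of the TET arrays takes part in the TET results was not tested. As for cell identity, all 9 macrophage markers were measured, and none lay among the dimmest 20% of genes in saline. Their summed linear signal was 77033 to 84224 under TET, 85861 to 100045 under TMT and 93150 to 95008 in saline. Against saline, 1 macrophage marker rose and 4 fell under TET, and 2 rose and 2 fell under TMT. Of 8 neutrophil markers 7 were measured, and 4 of them fell in each comparison with saline. Their sum was 1950 to 2157 under TET, 2451 to 3447 under TMT and 3416 to 4033 in saline, and its part in the results was not tested. Sums of B cell, T cell, dendritic cell, erythroid and mast cell markers lay between 128 and 288 on every array. Under TET, 3 B cell, 2 T cell, 2 dendritic cell, 2 erythroid and 1 mast cell marker rose against saline and 0 fell. Under TMT, 0 of these rose and 1 T cell marker fell. The markers of these 5 cell types were dim, at percentiles 5.79 to 48.9 of the saline signal. Over all genes, 27.4% rose and 23.4% fell under TET, against 24.2% and 42.5% among bright genes alone. Stromal markers summed to 793 to 982 under TET, 1347 to 1819 under TMT and 1189 to 1336 in saline. Of these 5 markers 3 rose and 1 fell under TET, and the brightest in saline, Pdgfrb, averaged 8.22 under TET and 9.81 in saline. The part of these markers in the results was not tested.

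The genes around the family in its pathway were described from 5 lists that hold 77 genes. Measurements existed for 73 of these, and the rest are not analysed here. Over all 18193 genes, 27.4% rose and 23.4% fell under TET, and 14.3% rose and 13.4% fell under TMT. Among the 9097 bright genes alone, 24.2% rose and 42.5% fell under TET, and 26.7% rose and 24.2% fell under TMT. The list counts below were not tested against these shares, and several lie near them. The kinases and partners that act on IκB proteins numbered 10 measured of 11. Under TET, 1 rose and 5 fell (median −0.35), and under TMT, 3 rose and 3 fell (median −0.07). Ikbke, an IKK-related kinase induced by LPS, read 9.71, 9.97 and 9.51 under TET, 11.04, 10.73 and 11.33 under TMT, and 11.19, 11.12 and 11.21 in saline. It fell 2.72-fold under TET (adjusted p = 4e-05), and under TMT its difference was −0.14 (adjusted p = 0.61), so only its TET arrays stood apart. Map3k8, the kinase that couples IκB kinase to ERK signalling, fell 2.63-fold under TMT (adjusted p = 1.5e-05), and its TET difference was −0.26 (adjusted p = 0.096).

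Map3k14, the kinase of the noncanonical pathway, rose under TMT by 0.80 (adjusted p = 0.00017) and under TET by 0.29 (adjusted p = 0.032), the second of which was lost without saline replicate 2 or 3 or TET replicate 2 and under each rescaling of the arrays (0.12 to 0.21). Ikbkb, the kinase that phosphorylates IκBα, fell by 0.60 under TET (adjusted p = 0.0014) and by 0.34 under TMT (adjusted p = 0.045), where the call was lost without any 1 of the saline or TMT arrays. Ikbkg, the regulatory subunit of that kinase complex, rose by 0.62 under TMT (adjusted p = 0.012), a call lost without saline replicate 1 and when its probe sets were averaged (0.19, adjusted p = 0.0639). Its TET difference of −0.11 did not pass (adjusted p = 0.55), and the sign turned under quantile normalization, cyclic loess and probe set averaging. Tab2, an adaptor of the kinase TAK1, fell by 0.54 under TET and fell by 0.53 under TMT, whereas Tab1 rose by 0.61 under TMT. Averaged over their probe sets, Tab2 differed by −0.85 under TET and −0.95 under TMT, Tab1 by 0.33 and Map3k14 by 0.46 under TMT, and Ikbkb by −1.17 under TET and −0.53 under TMT. Map3k7, which encodes that kinase, fell by 0.44 under TET (adjusted p = 0.0045) but not after cyclic loess (−0.20, adjusted p = 0.108), and the average of its probe sets gave −0.93.

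Of 15 measured ubiquitin enzymes and adaptors (16 listed), 2 rose and 6 fell under TET (median −0.20), and 1 rose and 4 fell under TMT (median −0.19). The inhibitor of apoptosis gene Birc2, a ligase of TNF receptor signalling, read 8.80, 8.73 and 9.17 under TET, 10.13, 10.38 and 9.98 under TMT, and 11.14, 11.34 and 11.33 in saline. It fell 5.18-fold under TET (adjusted p = 5.6e-07) and 2.16-fold under TMT (adjusted p = 0.00019), with no overlap between any of the groups. Its relative Birc3 fell 2.51-fold under TET (adjusted p = 2.8e-06) and 1.42-fold under TMT (adjusted p = 0.003), and without probe sets that may bind several transcripts its TET difference was −3.04. Rnf31, the catalytic subunit of the linear ubiquitin ligase, fell by 0.78 under TET and by 0.62 under TMT. Tank, an adaptor of IKK-related kinases, rose by 0.57 under TET (adjusted p = 0.00027), though not without probe sets that may bind several transcripts (0.21, adjusted p = 0.161), and it fell by 0.27 under TMT (adjusted p = 0.033). Sharpin, another subunit of the linear ligase, rose by 0.42 under TMT (adjusted p = 0.032), and that call was lost without any 1 of the saline or TMT arrays and with a replicate block (adjusted p = 0.0532).

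Negative feedback genes were mixed. Of 11 measured (12 listed), 5 rose and 5 fell under TET (median −0.22), and 2 rose and 3 fell under TMT (median −0.18). Tnfaip3, the ubiquitin-editing enzyme that ends NF-κB signalling, fell 1.91-fold under TET (adjusted p = 4.4e-05) and 1.79-fold under TMT (adjusted p = 0.00015). Tnip2, one of its binding partners, fell by 0.97 under TET (adjusted p = 9.4e-05). Otud7b, a deubiquitinase of the noncanonical pathway, read 10.55, 10.51 and 10.55 under TET, 8.86, 8.93 and 8.35 under TMT, and 9.56, 9.84 and 9.68 in saline. The 3 groups were apart, with the TET arrays above saline (by 0.85, adjusted p = 0.00085) and the TMT arrays below it (by 0.98, adjusted p = 0.00056). TET exceeded TMT by 1.82 for this gene (adjusted p = 4.1e-06). Pdlim2, a ligase for nuclear RelA, rose 2.08-fold under TMT (adjusted p = 5.9e-05), and its TET difference was −0.22 (adjusted p = 0.13). Zfand5, a zinc finger protein of the same domain family as Tnfaip3, rose by 0.58 under TET (1.43 without probe sets that may bind several transcripts), and Tax1bp1, an adaptor of Tnfaip3, rose by 0.32 under TET (adjusted p = 0.028) and by 0.65 under TMT (adjusted p = 0.00096).

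All 8 listed RNA-binding regulators of mRNA stability, some of which are known to act on Rel and Nfkbiz mRNAs, were measured. Under TET 3 rose and 4 fell (median −0.27), and under TMT 2 rose and 4 fell (median −0.39). Zc3h12a, the endonuclease that cleaves Rel and Nfkbiz transcripts, read 9.89, 9.69 and 9.70 under TET, 10.18, 10.09 and 9.98 under TMT, and 10.65, 10.57 and 10.42 in saline. It lay below saline on every organotin array and fell by 0.79 under TET (adjusted p = 0.00013) and by 0.47 under TMT (adjusted p = 0.0059). Rc3h1, which encodes the stem-loop-binding protein roquin, fell by 0.71 under TET and by 1.14 under TMT (adjusted p = 6.6e-05 and 4.8e-06).

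Rc3h2, its paralog, went opposite ways in its brightest probe set, with TET arrays at 10.00 to 10.05, TMT arrays at 8.24 to 8.66 and saline arrays at 9.18 to 9.39. It rose by 0.75 under TET (adjusted p = 0.00039) and fell by 0.84 under TMT (adjusted p = 0.00029), which was −0.22 over the average of its 7 probe sets (adjusted p = 0.049). The TET rise of Rc3h2 was not re-tested by gene under the alternatives. Zfp36l1, a decay factor for AU-rich mRNAs, rose under both, 3.17-fold under TET and 2.84-fold under TMT. Zfp36l2 rose 3.07-fold under TET (adjusted p = 1.4e-05) and by 0.59 under TMT (adjusted p = 0.016), while Zfp36 of the same family fell by 0.45 under TET and by 0.56 under TMT.

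**Figure D4:**
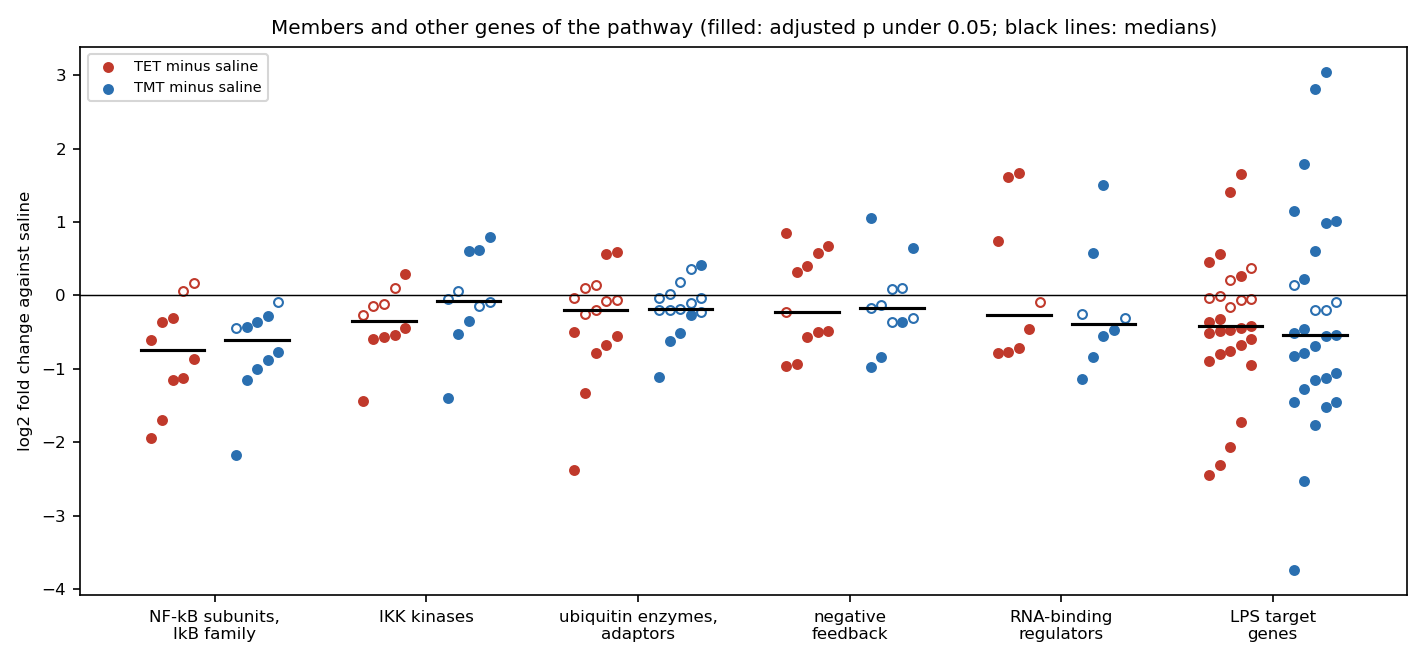
Log2 fold change against saline for the members and 5 lists of pathway genes. Points are genes, TET left of TMT in each pair, filled where the adjusted p was under 0.05, and black lines are medians. Members had medians of −0.74 and −0.60, and the LPS target genes spread from −2.44 to 1.66 under TET and from −3.74 to 3.05 under TMT.

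NF-κB-dependent LPS target genes, 29 measured of 30 listed, fell more often than they rose, but several rose. Under TET 5 rose and 17 fell (median −0.42), and under TMT 8 rose and 17 fell (median −0.53). Tnf, encoding tumour necrosis factor, read 10.21, 10.61 and 10.42 under TET, 11.54, 11.14 and 11.54 under TMT, and 12.93, 12.73 and 12.91 in saline. It fell 5.44-fold under TET (adjusted p = 4.3e-07), and TET lay below TMT by 1.00 (adjusted p = 0.00019). Irf1, an interferon-pathway transcription factor, fell 4.18-fold under TET (adjusted p = 5.7e-07).

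Il12b and Il6 followed the order of Rel and of the brightest probe set of Nfkbiz, with the lowest values under TMT. The dimmest probe set of Nfkbiz did not have this order. By group means, Il23a, Cxcl1, Cxcl2, Ccl3, Ccl4, Icam1, Ptgs2, Cd83 and Csf2 were among other targets that had it. Others, such as Tnf, Irf1 and Tlr2, were lowest under TET. Any part of Rel or Nfkbiz in this order was not tested. Il12b, a c-Rel target encoding the shared subunit of interleukin-12 and interleukin-23, read 11.21, 11.35 and 11.41 under TET, 9.48, 9.03 and 9.32 under TMT, and 11.94, 11.65 and 11.84 in saline. It fell 5.79-fold under TMT (adjusted p = 4.7e-07), and its TET fall was 0.49 (adjusted p = 0.01). Il6 fell by 1.27 under TMT (adjusted p = 2.6e-05) and by 0.44 under TET (adjusted p = 0.012), the second not passing after cyclic loess (−0.27, adjusted p = 0.117). The chemokine gene Cxcl1 fell 1.92-fold under TET and 2.73-fold under TMT. A probe set of Cxcl1 that is specific by its name gave log2 fold changes of −1.58 and −2.32. Il1b, encoding interleukin-1β, fell by 0.76 under TET (adjusted p = 0.0012), and its TMT difference was −0.20 (adjusted p = 0.37).

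Among the risers, Lcn2, an iron-withholding protein whose induction needs IκBζ, read 11.69, 11.71 and 11.69 under TET, 13.41, 13.17 and 13.43 under TMT, and 10.19, 10.39 and 10.29 in saline. It rose 8.26-fold under TMT (adjusted p = 6.2e-08) and 2.66-fold under TET (adjusted p = 1.7e-06), on arrays where Nfkbiz was lower than in saline. Only RNA was measured, and the part of Nfkbiz in the Lcn2 values was not tested. Marco, a scavenger receptor, rose 7.01-fold under TMT (adjusted p = 6.5e-08) and by 0.56 under TET (adjusted p = 0.00072), and the average of its probe sets gave 1.65 under TMT on the log2 scale.

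The genes whose pattern over the 9 arrays was most like that of a member were found by the root mean square of the difference in log2 signal, each gene first set to its saline mean. They were sought for members with at least a 2-fold change. Rel was closest to Csf1 (0.151) and Ndnf (0.165), and Rela to 2610024D14Rik (0.0861) and Plec (0.147). Nfkbia was closest to Skil (0.0702) and Dnajc24 (0.0799), and Nfkbie to Spcs3 (0.125) and Hps3 (0.127). The nearest genes to Nfkbiz were Man1a (0.0905) and Il6 (0.0953), and to Bcl3 they were Tlr2 (0.106) and Srsf5 (0.162). Of these, Tlr2 and Il6 are among the LPS target genes above, and the likeness is a description over 9 arrays in 3 groups.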

How the data were processed

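The authors deposited 1 table of log2 signals for 45037 probe sets on 9 arrays, made with RMA and affy per the submitters' processing notes, with versions not given in the sources used here. What base the logarithm has is stated nowhere and was read from the values (2.05 to 14.79), and whether RMA took all arrays together is not stated either. Values were used as deposited. Of the probe sets, 34945 named 1 gene in the platform annotation, 932 several and 9160 none, and the last 2 kinds were left out. Each of 18193 genes was read from the probe set with the highest mean over 9 arrays.

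With limma 3.58.1 in R 4.3.3, the 3 group means were estimated in 1 linear model over all arrays. The Benjamini-Hochberg method adjusted the two-sided p-values of each comparison over all genes, and a gene passed under 0.05. SE is the moderated standard error, and intervals are 95%. Data for TMT against saline were also simulated over 18193 genes. Changes of 0.5, 1 and 2 on the log2 scale were put into 67, 67 and 66 genes. Each gene had the same spread in all groups. The fit recovered 35.8% of changes of 0.5, 91.0% of changes of 1 and 98.5% of changes of 2. The real arrays had many more called genes and spreads that differed by group, so these shares need not hold for them. The members and lists were chosen with earlier results of these data known. Pathway genes were named if they were among the 4 with the smallest adjusted p of a list in a comparison with saline, or for their role. Alternatives left out each array, kept bright genes, rescaled the arrays, treated probe sets differently, weighted arrays, changed the moderation or the arrays in the fit, tested against a 1.2-fold change and added a replicate block.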

Additional observations from a re-analysis of the deposited data

How the results depend on the processing

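Of the values computed for the members under the alternatives, 554 kept their direction and their side of the threshold, 43 no longer passed, 14 newly passed and 7 changed sign. The 554 include fits without an array of the group outside the comparison, and fits that left the fold change itself as it was. Such fits leave less room for a change, so these counts do not measure how firm the calls are. Leaving out 1 array at a time gave 7 to 9 called members under TET, 5 to 8 under TMT and 7 to 10 for TET against TMT. Over all genes, the same fits called 3865 to 4987 higher and 3675 to 4385 lower under TET. They called 2021 to 2859 higher and 1937 to 2663 lower under TMT. For TET against TMT they called 4131 to 5120 higher and 3836 to 4320 lower. Without each saline array in turn the TMT count was 5, because Relb, Nfkbia and Nfkbid were lost. Against a 1.2-fold change, 5 members were called in each comparison, and the genes called were 2362 higher and 2781 lower under TET, 1393 and 1367 under TMT, and 2477 higher for TET against TMT. With bright genes alone, 2204 were higher and 3862 lower under TET, and 2366 higher and 3904 lower for TET against TMT. Array weights gave 4561 higher and 4195 lower under TMT.

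Nfkbib under TET turned to −0.05 with array medians subtracted, −0.55 over the mean of its probe sets and −1.17 with the dimmer one, which was also the value without probe sets named x, s or a, and after cyclic loess it passed as a rise of 0.26 (adjusted p = 0.0455). Leaving out single arrays gave −0.00 to 0.10 for it, and −0.17 to 0.00 for Nfkbie under TMT. Nfkbiz for TET against TMT was −0.08 in its dimmest probe set. Ikbkg under TET was 0.04 after quantile normalization, 0.16 after cyclic loess and 0.01 over the mean of its probe sets. Causes were not tested. Subtracting array medians changed the split over all genes to 3419 higher and 5008 lower under TET (40.6% higher, against 53.9% as deposited), and to 3782 and 4847 for TET against TMT (43.8%, against 54.3%).

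For samples that shared a replicate number, deviations from the group means correlated at −0.15 to 0.31 over 9 pairs, with 3 above 0.1. For samples with different numbers they correlated at −0.30 to 0.26 over 18 pairs, also with 3 above 0.1. The highest value, 0.31, was that of saline replicate 2 with TMT replicate 2. The numbers were not taken as pairs in the main fit, and these correlations cannot settle whether such samples shared a batch. With a replicate block in the fit, 8, 7 and 8 members were called under TET, under TMT and for TET against TMT, and Nfkbia under TMT was the one lost (−0.29, adjusted p = 0.0507). Of the pathway genes re-tested, Sharpin under TMT (0.42, adjusted p = 0.0532) and Map3k14 under TET (0.29, adjusted p = 0.0606) were lost with it. Rela, Nfkb2 and Nfkbie have no value without probe sets named x, s or a. The number of arrays limits every comparison, and no value here gives the background of an array.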

Other observations

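Pairs of members on the same array, picked after their values were seen, are given here as a description with no test. The log2 difference of Rel minus Rela was 0.85 higher on the TET arrays than on the saline arrays, and its change on the TMT arrays against saline was −1.29. For Nfkbie minus Nfkbia, the change was −0.82 on the TET arrays and 0.20 on the TMT arrays. For Nfkbiz minus Bcl3, it was 1.34 on the TET arrays and −0.15 on the TMT arrays.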
